A study of Mus musculus with 2 samples.

Results

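The proteasome is the protease complex that degrades proteins tagged with ubiquitin. Its genes were compared between a mammary gland library from mice homozygous for the Mir212/132 ILN allele and a wild-type library. Members were all rows of the gene tables whose symbol is Psma, Psmb, Psmc, Psmd or Psme followed by digits, without the immunoproteasome genes Psmb8, Psmb9 and Psmb10. This gave 40 genes of 21113 in each table. The ILN allele holds a cassette named IRES-LacZ-Neo, inserted where miR-212 and miR-132, a pair of microRNAs, are encoded. Both libraries came from C57BL/6 mice at week 6 after birth, and the labels do not say how many animals went into either. Each genotype had 1 library, so no difference below has a replicate check, and no test or p-value was computed. In a whole gland, fewer cells of a type and less RNA per cell cannot be told apart.

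The proteasome consists of a barrel-shaped core particle and a regulatory particle that caps it. Rings of alpha subunits gate the barrel and rings of beta subunits hold its protease sites, while the cap binds ubiquitin, removes it and unfolds the substrate with a ring of ATPases. Alternative activators can replace the cap. The subunits are made in nearly all cells, and their genes are known to be raised together by the transcription factor encoded by Nfe2l1 when degradation is impaired.

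The libraries were of like depth, with 42953129 fragments assigned to genes in the ILN/ILN library and 46133338 in the wild-type library. The unit of level is the deposited FPKM-like value, which is scaled for gene length and library size. Length here is the deposited per-gene number headed gEUMA, which need not equal the length of a transcript. Mir212 and Mir132 were not analysed here, so the targeted transcripts give no check of the labels. Markers of several cell types differed between the libraries. The ILN/ILN library was lower by 1.5-fold or more in all 8 measured luminal epithelial markers. The 12 listed markers summed to a value of 1.06 there and 46.2 in wild type, and Krt8, Elf5 and Cldn7 had no fragment in the ILN/ILN library. All 9 measured B cell and 11 T cell markers were also at least 1.5-fold lower, with summed values of 38.2 and 36.9 in the ILN/ILN library, against 219 and 104 in wild type. Of 10 macrophage and dendritic cell markers 7 were at least 1.2-fold lower (sums of 1305 and 1994), as were 7 of 10 cell cycle genes (32.3 and 50.7). Of the cell cycle genes 1, Cdk1, was at least 1.2-fold higher, at 3.15 in the ILN/ILN library and 2.20 in wild type. Much of the cell cycle sums was Birc5, at 13.7 and 21.7, and Tyms, at 4.61 and 10.5. Values of both came from the authors' derived estimate and not directly from fragments. Tyms had 215 and 284 fragments, 1.23-fold lower when scaled by the library totals. White adipocyte markers, the defining genes of the fat pad, summed to 78357 in the ILN/ILN library and 87013 in wild type. Most of that difference was Cfd, at 25466 and 33952, and the list's median log2 ratio was 0.12, on the other side of 0 from the sum, with 3 of 12 at least 1.2-fold higher and 1 lower. No marker of the B cell, T cell, macrophage, adipocyte or cell cycle lists was at 0 in either library. The part of these differences in the values of proteasome genes was not tested.

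The mature microRNAs of the locus are shown because their seed helps decide which transcripts they can pair with. Both sequences are RefSeq's, on the plus strand of GRCm38.p6, at chr11:75173443-75173464 for miR-212-3p and chr11:75173723-75173744 for miR-132-3p. Capitals mark the seed, bases 2 to 8, which the microRNAs share.

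miR-212-3p: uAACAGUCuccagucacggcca

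miR-132-3p: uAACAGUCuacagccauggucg

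The matching site, GACTGTT, was looked for in 3′ untranslated regions, taking the longest that GENCODE annotates for a gene. Genes are called measured where the value reached 1 in the ILN/ILN library, the wild-type library or both. Of the 38 measured proteasome genes, 2 held the site, which is 5.26%, against 12.6% of the 11325 measured genes that could be searched. These regions were shorter in proteasome genes, with a median of 295 bases against 1131 bases over all searched genes. Psma2, an alpha-ring subunit, held 2 sites and Psmc3, an ATPase, held 1, shown here with 10 bases to each side and the site in capitals.

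Psma2, base 764 of the region: taggataataGACTGTTtgtgaatgtc

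Psma2, base 1806 of the region: taagagctctGACTGTTctttcagtgg

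Psmc3, base 176 of the region: attgtggactGACTGTTattggttaag

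The 2 genes lay on opposite sides of equality. Psma2 had a value of 102 in the ILN/ILN library and 85.0 in wild type, with 4100 and 3668 fragments. Scaled by the library totals, its fragments gave a ratio of 1.2, ILN/ILN over wild type. The 95% interval was 1.15 to 1.26; this and all later intervals cover counting error alone. Psmc3 had a value of 109 in the ILN/ILN library and 117 in wild type, with 7766 and 8990 fragments, and was 1.08-fold lower (1.05 to 1.11). Both sites of Psma2 lie in a transcript of 2911 bases, whereas the deposited length of the gene is 889 bases, so the fragments counted need not come from the longer form. The median log2 ratio over all searched genes was 0.05 with a site and 0.01 without one. Ratios over all genes also moved with gene length, as given below, and the part of length in this difference was not tested.

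Proteasome genes were expressed at similar levels in both libraries and differed little as a group. Their summed fragments were 188698 in the ILN/ILN library and 195903 in wild type, or 0.439% and 0.425% of all fragments, a ratio of 1.03 (1.03 to 1.04). The median log2 ratio of (value + 1) was 0.08 over the 38 measured members and 0.02 over all 11556 measured genes. A log2 ratio above 0 was found in 28 of the 38, against 52.3% of all genes. On this scale 3 members, Psma4, Psmc2 and Psmd14, were at least 1.2-fold higher in the ILN/ILN library, where 13.1% of all genes were. Only Psmb1 was at least 1.2-fold lower, against 16.5% of all genes. The counting intervals of the fragment ratios lay wholly past 1.2-fold for Psma4 and Psmb1, while those of Psmc2 and Psmd14 spanned it. By that ratio, which has no pseudocount, 5 members were at least 1.2-fold higher, with Psma2 and Psmd10 added, against 16.6% of all genes. None reached 1.5-fold in either direction, which 1.9% of all genes did upward and 5.39% downward. The SD of the log2 ratio was 0.15 over the members and 0.36 over all genes. Of the members 89.5% lay within 1.2-fold, against 70.4% of all genes and 71.6% of the 7819 genes that reached a value of 5, as 37 of the 38 members did.

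**Figure D1:**
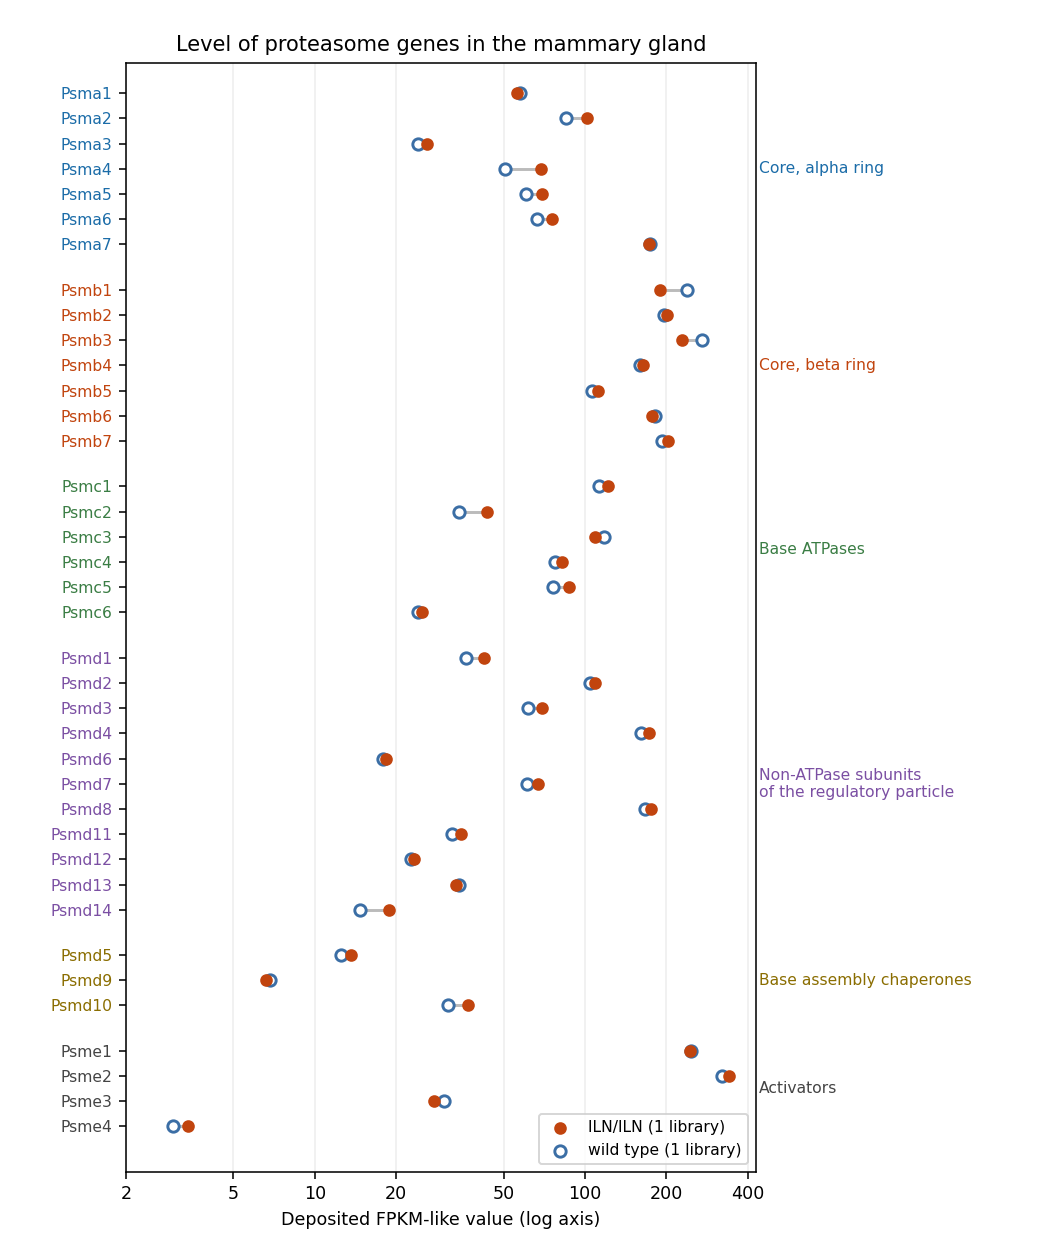
Deposited FPKM-like value (log axis) of the 38 measured proteasome genes in the ILN/ILN library (filled) and the wild-type library (open), grouped by role, with 1 library per genotype and no error bars. Levels span from Psme4, at 3.40 and 2.98, to Psme2, at 340.2 and 321, while the paired points of each gene lie close together. Values of Psmd2 and Psmd10 came from the authors' derived estimate, and that of Psmd10 ranks lower by fragments.

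Levels differed far more between members than between libraries. An assembled particle holds its core subunits in equal number, yet the 14 measured core genes spanned 8.81-fold in the ILN/ILN library and 11.3-fold in wild type. The span over all measured members was wider and lay between 2 activator genes, which are outside the core. Values ran from 3.40 for Psme4 to 340.2 for Psme2 in the ILN/ILN library, and from 2.98 to 321 for the same genes in wild type. The order was nearly kept, with Spearman's rho of 0.995 across the 38 genes, which are not independent replicates. The 7 beta subunits were all among the 14 highest members in both libraries. Lower levels went with longer genes, with Pearson's r of -0.73 between the mean log2(value + 1) and log2 length across members and -0.33 across all measured genes. The value is itself divided by this length, so level and length are not independent quantities here.

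The alpha ring gates the core and is built from Psma1 to Psma7. The median log2 ratio of these 7 genes was 0.18, and 5 of them were above 0. Psma4 was the most different of all members. It had a value of 68.8 in the ILN/ILN library and 50.5 in wild type, with 3177 and 2504 fragments, a ratio of 1.36 (1.29 to 1.44). Psma5, at 69.1 and 60.6, and Psma6, at 75.3 and 66.5, were also higher in the ILN/ILN library, with ratios of 1.14 (1.09 to 1.2) and 1.13 (1.08 to 1.19). Psma3 had the lowest level of the ring, at 26 in the ILN/ILN library and 24.2 in wild type. The lowest ratio was that of Psma1, at 55.9 and 57.7, whose interval spanned equality (0.921 to 1.02). Psma7, the most abundant alpha transcript, was at 173 in the ILN/ILN library and 174 in wild type. The alpha genes together gave 24897 fragments in the ILN/ILN library and 24227 in wild type, a ratio of 1.10 (1.08 to 1.12).

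Psma8 encodes an alpha subunit of the testis, made in place of the Psma7 product, and was near the limit of detection. It had 5 fragments in the ILN/ILN library and 4 in wild type. Psmb11, the beta subunit of the thymus cortex, had 0 fragments in the ILN/ILN library and 5 in wild type. A count of 0 allows up to 3 fragments, for counting error only. These are the 2 members under a value of 1 in both libraries, and no ratio is given for them.

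The beta ring holds the protease sites and was lower in summed fragments in the ILN/ILN library, unlike the alpha ring. The 8 beta genes gave 48511 fragments in the ILN/ILN library and 54963 in wild type, 1.05-fold lower (1.04 to 1.07). The difference lay mostly in 2 structural subunits without a protease site. Psmb1 had a value of 189.9 in the ILN/ILN library and 239.6 in wild type, with 8253 and 11193 fragments, and was 1.26-fold lower (1.23 to 1.30). Psmb3 had 229 and 272, with 6805 and 8681 fragments, and was 1.19-fold lower (1.15 to 1.23). The other structural subunits, Psmb2 at 202 and 196 and Psmb4 at 165 and 160.4, had ratios of 1.03 each, with intervals that spanned equality. The median log2 ratio of the 7 measured beta genes was 0.04, on the other side of 0 from the sum.

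The catalytic subunits were close in level between the libraries. Psmb5, which carries the chymotrypsin-like site, had 112 in the ILN/ILN library and 106 in wild type, with a ratio of 1.05 (1.01 to 1.10). Psmb6, the caspase-like subunit, had 177 and 181, with a ratio of 0.976 (0.947 to 1.01). Psmb7, the trypsin-like subunit, had 203 and 193, with a ratio of 1.05 (1.02 to 1.08), the highest log2 ratio of the ring after that of Psmb5. The catalytic genes were unequal in level, Psmb5 lowest in both libraries.

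In cells exposed to interferon, and in immune cells, Psmb8, Psmb9 and Psmb10 replace Psmb5, Psmb6 and Psmb7. Psmb8 stood slightly above Psmb5 in both libraries, at 116 in the ILN/ILN library and 119.8 in wild type. Psmb9 had 56.5 and 63.0, and Psmb10 had 38 and 41.6. The immune subunit thus stood at 1.04, 0.319 and 0.187 times its counterpart in the ILN/ILN library, against 1.13, 0.347 and 0.215 times in wild type. The quotient of fragments, ILN/ILN over wild type, was 0.923 for Psmb8 over Psmb5 (0.872 to 0.976), 0.919 for Psmb9 over Psmb6 (0.858 to 0.984) and 0.870 for Psmb10 over Psmb7 (0.814 to 0.929). Each immune subunit was therefore lower against its counterpart in the ILN/ILN library, by less than 1.2-fold. The B and T cell markers given above were further apart, and their part in these quotients was not tested. The 11 genes of an interferon list that holds these immune subunits summed to 509 in the ILN/ILN library and 488 in wild type. The list's median log2 ratio was 0.001, with 2 genes at least 1.2-fold higher in the ILN/ILN library and 0 lower. Of these 2, Tap1 had 43.7 and 33.7 by the authors' derived estimate. Its fragments were 2744 and 2978, a ratio of 0.990 (0.939 to 1.04).

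**Figure D2:**
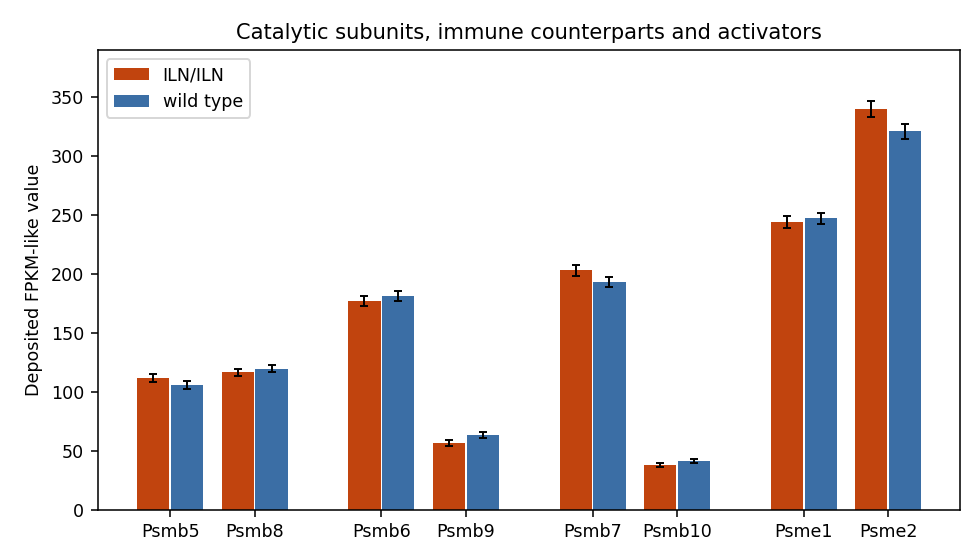
Deposited FPKM-like value of the catalytic subunits Psmb5, Psmb6 and Psmb7, each beside its immune counterpart, and of the activators Psme1 and Psme2, in the ILN/ILN library (left bars) and the wild-type library (right bars). Error bars are 95% Poisson intervals of the fragments, for counting error alone. Psmb8 stands near Psmb5, while Psmb9 and Psmb10 stay well under Psmb6 and Psmb7 in both libraries.

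The activator genes held the highest and the lowest level of all measured members. Psme1 and Psme2, which are interferon-inducible, encode the subunits of a ring that opens the core without ATP. Psme1 had 244 in the ILN/ILN library and 248 in wild type, with a ratio of 0.986 (0.959 to 1.01), and Psme2 had 340.2 and 321, with a ratio of 1.06 (1.03 to 1.09). Psme3, whose product forms a related activator in the nucleus, had 27.6 in the ILN/ILN library and 30.2 in wild type and was 1.10-fold lower (1.04 to 1.15). Psme4, which encodes a large nuclear activator, had 3.40 and 2.98, with a ratio of 1.14 (1.04 to 1.25). The activators as a group summed to 24156 fragments in the ILN/ILN library and 25700 in wild type, a ratio of 1.01 (0.992 to 1.03). Their median log2 ratio was 0.03, and -0.02 without Psme4, which falls under a minimum of 5.

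The base of the regulatory particle holds a ring of 6 different ATPases that unfold substrates, and 5 of their genes had a log2 ratio above 0. Psmc2 had 43.2 in the ILN/ILN library and 34.3 in wild type, with 3337 and 2846 fragments, a ratio of 1.26 (1.2 to 1.32). Psmc5 had 87.4 and 76.1, a ratio of 1.15 (1.1 to 1.2). Psmc3, described above for its seed site, was the ATPase gene with the ratio below 1. Psmc1, at 122 and 113, Psmc4, at 82.2 and 77.5, and Psmc6, at 25 and 24, had ratios of 1.08, 1.06 and 1.04. Levels in this ring spanned 4.89-fold in both libraries, and the ATPase genes together had a ratio of 1.06 (1.04 to 1.07).

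The 11 non-ATPase genes of the regulatory particle were the most uniform of the larger groups, with 10 log2 ratios above 0, a median of 0.10 and an SD of 0.10. Psmd14 encodes the metalloprotease that cuts ubiquitin chains off the substrate. It had 18.8 in the ILN/ILN library and 14.7 in wild type, with 1265 and 1059 fragments, a ratio of 1.28 (1.18 to 1.39). Its partner in a heterodimer, Psmd7, had 66.8 and 61.2, a ratio of 1.09 (1.05 to 1.14). The scaffold gene Psmd1 had 42.2 and 36.2, a ratio of 1.17 (1.12 to 1.21). Psmd4, which encodes a ubiquitin receptor, had 173 in the ILN/ILN library and 162 in wild type and was, with Psmd8 at 176 and 167, the most abundant of the group. Among subunits of the lid, Psmd3 had 69.1 and 61.4, Psmd11 had 34.8 and 32.3, Psmd12 had 23.3 and 22.6 and Psmd6 had 18.4 and 17.8. Psmd13, another lid subunit, had the lowest ratio, at 33.4 in the ILN/ILN library and 34.2 in wild type, with an interval that spanned equality (0.919 to 1.03). The group summed to 58016 fragments in the ILN/ILN library and 57438 in wild type, a ratio of 1.08 (1.07 to 1.10).

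Psmd5, Psmd9 and Psmd10 carry subunit names but encode chaperones that help assemble the base and are absent from the finished particle. All 3 lay below the median level of the members, which was 72.2 in the ILN/ILN library and 64.0 in wild type. Psmd5 had 13.7 in the ILN/ILN library and 12.5 in wild type, and Psmd9 had 6.60 and 6.81. Psmd10, also known as the oncoprotein gankyrin, had 37.1 and 31.0, but these deposited values came from the authors' derived estimate and not directly from fragments. Counted as 659 and 553 fragments, its ratio was 1.28 (1.14 to 1.44), past 1.2-fold, while the deposited values stayed inside it. Its level also depended on the estimate. From fragments scaled by length, its rank among the members fell from 27 to 36 in the ILN/ILN library and from 29 to 36 in wild type. The scaffold gene Psmd2, with 109 in the ILN/ILN library and 105 in wild type, was the other member with derived values, and with 11099 and 10902 fragments it had a ratio of 1.09 (1.06 to 1.12).

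**Figure D3:**
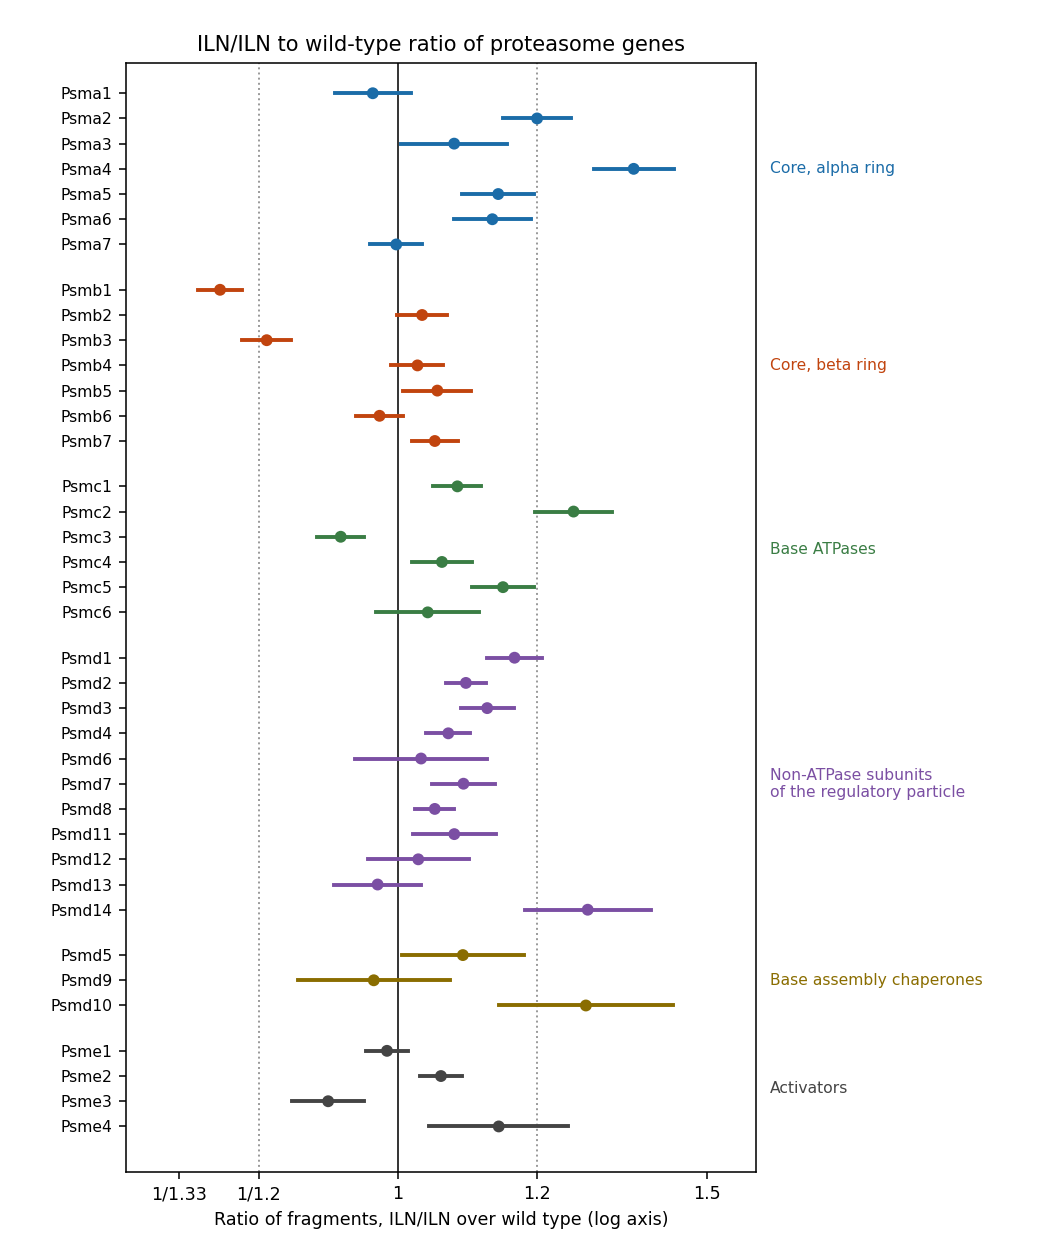
Ratio of fragments scaled by library totals, ILN/ILN over wild type (log axis), for the 38 measured proteasome genes by role. Bars are exact 95% intervals for counting error in 1 library per genotype, and dotted lines mark 1.2-fold. Psma4 lies highest at 1.36 and Psmb1 lowest, 1.26-fold lower.

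Proteasome genes are short by the deposited length, and the ratios over all genes moved with that length. Measured genes were split by deposited length into 4 classes of like size. Of the 38 measured members 23 fell in the shortest class, at most 1467 bases, where the median log2 ratio of all genes was -0.05. In that class the members' median was 0.07, and 21 of the 23 lay above the median of all genes there. In the next class, up to 2403 bases, 8 of 10 members lay above the genes' median of -0.00, with a median of 0.11. In the third class 2 of 4 members did, and their median of 0.01 was under the genes' 0.03, while the longest class held 1 member, Psme4, above the genes' median. With ratios centred within length classes the members' median was 0.12, and 5 members, Psma2 and Psmd10 besides the 3 named above, were at least 1.2-fold higher, or 13.2% of the members against 11.6% of all genes centred the same way.

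**Figure D4:**
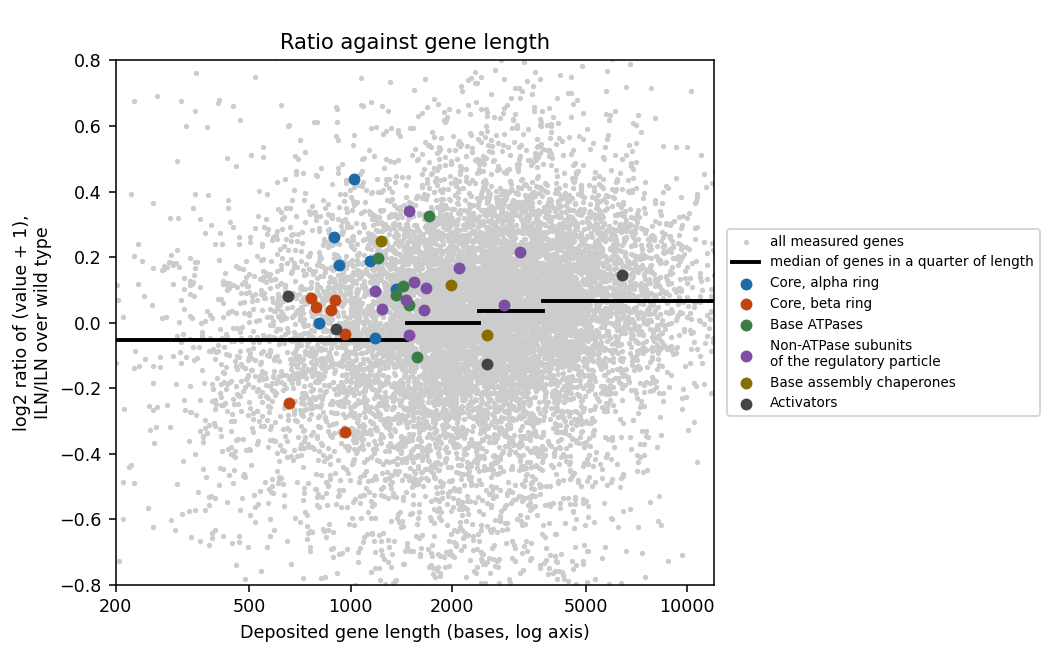
Log2 ratio of (value + 1), ILN/ILN over wild type, against deposited gene length (log axis) for all measured genes (grey) and for proteasome genes by role. Black lines are the medians of all genes in each of 4 length classes, genes outside the plotted range are not shown, and most members lie above the line of their class.

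Several proteasome genes have processed pseudogenes, and the sources used here do not say how reads that match more than 1 place were counted. In GENCODE transcripts, 11 members shared more than 10% of their 36-base windows with transcripts of other genes. Their values are uncertain for this reason, but the share does not measure by how much. The share was 70.3% for Psmb5, 64.4% for Psme2, 64.3% for Psmb3 and 61.0% for Psma5, and 34.7% for Psma4. It was 6.25% for Psmb1 and 5.18% for Psmd14, and none for Psmc2. Exons of 10 members overlapped those of another gene. Psma4 overlapped AY074887 on the opposite strand over 114 bases, and Psmb7 overlapped Nek6 over 405 bases. The longest overlap was that of Psmd9 with Gm26745 on the opposite strand, over 1849 bases. The use of strand in counting is not given, so fragments of such pairs cannot be told apart. Psmd1 also overlapped Gm21972 over 301 bases on the same strand, where strand could not separate the fragments.

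Promoters of Psma4 and Psmb3 are shown because these genes had the highest and the lowest ratio among members with a promoter sequence in RefSeq, and that of Psmb5 because it holds a match to the element bound by the Nfe2l1 and Nfe2l2 factors. Each runs from 250 bases before to 50 after the start of the gene in GRCm38.p6. Capitals mark matches, on either strand, to TGACNNNGC (the core of the antioxidant response element), CCAAT or GGGCGG.

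Psma4, chr9:54950609-54950908, plus strand: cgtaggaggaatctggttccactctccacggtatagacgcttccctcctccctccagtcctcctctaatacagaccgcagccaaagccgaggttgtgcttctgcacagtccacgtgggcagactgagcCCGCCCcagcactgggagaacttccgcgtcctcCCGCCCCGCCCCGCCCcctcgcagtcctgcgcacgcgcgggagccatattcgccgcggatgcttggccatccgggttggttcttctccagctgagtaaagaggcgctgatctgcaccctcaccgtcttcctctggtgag

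Psmb3, chr11:97703184-97703483, plus strand: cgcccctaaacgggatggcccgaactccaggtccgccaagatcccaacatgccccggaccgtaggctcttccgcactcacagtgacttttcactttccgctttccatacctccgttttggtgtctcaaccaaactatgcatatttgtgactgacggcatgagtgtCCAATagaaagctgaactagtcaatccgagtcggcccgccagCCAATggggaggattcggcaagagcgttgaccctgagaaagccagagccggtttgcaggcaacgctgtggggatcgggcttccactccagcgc

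Psmb5, chr14:54617946-54618245, minus strand: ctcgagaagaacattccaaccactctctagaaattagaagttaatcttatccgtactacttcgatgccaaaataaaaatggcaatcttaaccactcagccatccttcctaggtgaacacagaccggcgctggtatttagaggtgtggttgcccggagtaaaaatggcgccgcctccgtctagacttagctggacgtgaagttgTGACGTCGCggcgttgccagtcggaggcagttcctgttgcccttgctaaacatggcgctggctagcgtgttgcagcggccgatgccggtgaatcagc

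Against measured genes, the motifs were about as common in proteasome promoters, while GGGCGG was more frequent than in the promoters of all genes. Of 33 members with a sequence, 6 held TGACNNNGC, which is 18.2%, against 14% of all 27025 genes with a promoter and 17.0% of measured genes. These 6 were Psmb5, Psmb6, Psmc6, Psmd9, Psmd12 and Psme4. CCAAT was found in 39.4% of members, against 41.1% of all genes, and GGGCGG, a box bound by Sp1, in 63.6%, against 38.2% of all and 69.2% of measured genes. Among measured members the median log2 ratio was 0.05 in the 6 with TGACNNNGC and 0.10 in the 26 without it. For CCAAT it was 0.11 in the 12 with and 0.07 in the 20 without the motif, the other direction, and for GGGCGG it was 0.08 in the 21 with and 0.10 in the 11 without. A match is a run of letters in this window and does not show binding.

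Genes around the proteasome were read from a list of 43 symbols, of which 40 had a row and 39 were measured. The list covers assembly chaperones, receptors, deubiquitinases, ubiquitin genes and regulators. Its median log2 ratio was 0.09, with 6 genes at least 1.2-fold higher and 2 lower, or 15.4% and 5.13% of the list against 13.1% and 16.5% of all measured genes. The share that was higher is near that of all genes. The 6 were Psmg1, Psmg3, Psmg4, Usp14, Nploc4 and Zfand2a. Psmg1 and Psmg3, which encode chaperones that assemble the alpha ring, had ratios of 1.23 (1.09 to 1.38) and 1.32 (1.12 to 1.54), at 14.5 and 10.4 in the ILN/ILN library and 11.8 and 7.89 in wild type. Their relative Psmg4 was higher in deposited value, 45.8 against 35.7, but lower in fragments, 319 against 427, since its values came from the derived estimate. Pomp, which encodes the maturation factor of the beta ring, had 170.0 in the ILN/ILN library and 184 in wild type and was 1.08-fold lower (1.04 to 1.12).

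Regulators of the particle lay on both sides of equality, and only some of the listed ones are named here. Nfe2l1 had 139 in the ILN/ILN library and 119 in wild type, with 21196 and 19402 fragments, a ratio of 1.17 (1.15 to 1.2). Ddi2, the protease that releases the Nfe2l1 product, had 5.79 and 6.92, a ratio of 0.837 (0.730 to 0.958), and the related factor gene Nfe2l2 had 36.5 and 34.8. Usp14, which encodes a deubiquitinase bound to the cap, had 3.44 and 2.69, a ratio of 1.28 (1.09 to 1.5). The ubiquitin receptor gene Adrm1 had 66.8 in the ILN/ILN library and 62.7 in wild type, and Psmf1, which encodes an inhibitor of the core, had 12.3 and 10.7. Nploc4, a cofactor of the unfoldase encoded by Vcp, had 20.3 and 16.5, a ratio of 1.23 (1.17 to 1.29). Zfand2a, which encodes a stress-induced partner of the proteasome, had 10.1 and 7.59. Only the ILN/ILN value came from the derived estimate, so these deposited values are unlike. Its fragments were 1120 in the ILN/ILN library and 1112 in wild type, a ratio of 1.08 (0.995 to 1.18).

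Ubiquitin itself is encoded by several genes. Ubb, which encodes a chain of ubiquitin repeats, had 3728 in the ILN/ILN library and 3302 in wild type, a ratio of 1.13 (1.12 to 1.14). Rps27a, which encodes ubiquitin fused to a ribosomal protein, had 670.5 and 1079 and was 1.61-fold lower (1.58 to 1.64), past 1.5-fold. These genes thus lay on opposite sides of equality.

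**Figure D5:**
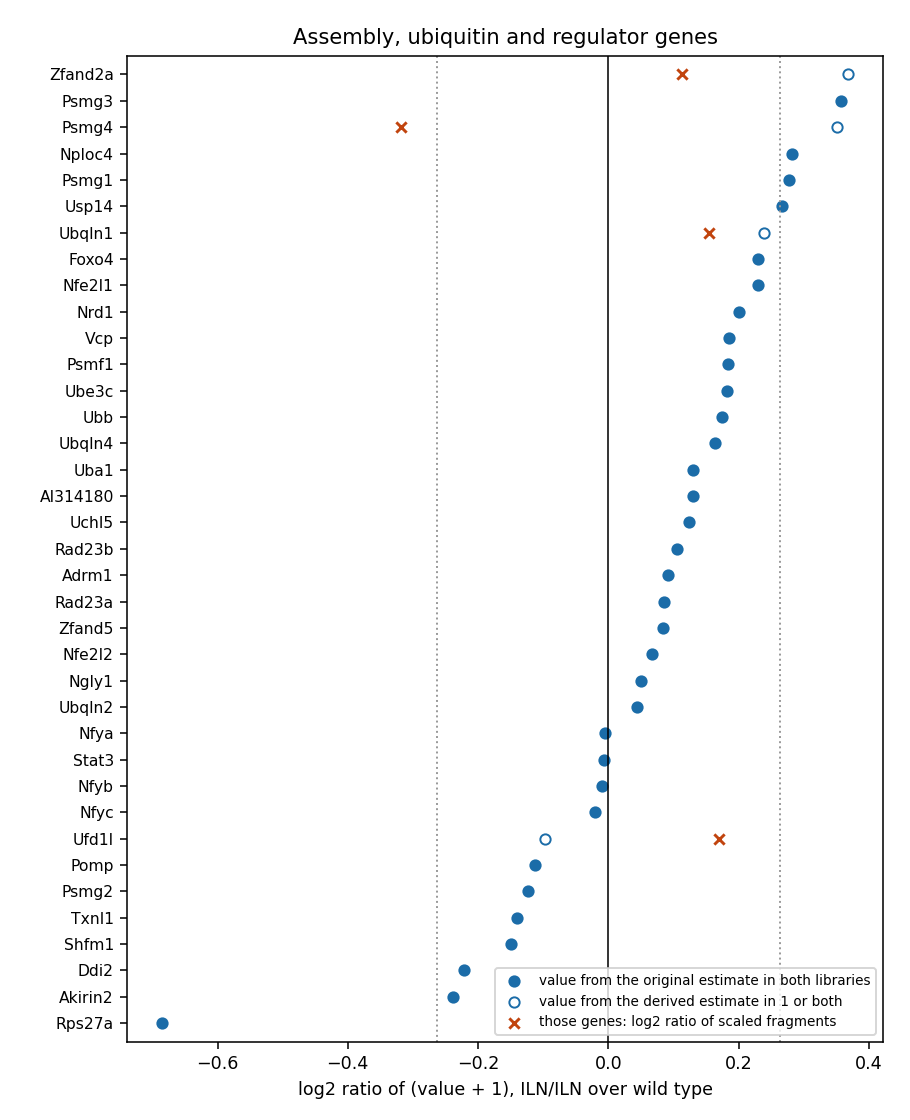
Log2 ratio of (value + 1), ILN/ILN over wild type, for 37 of the 39 measured genes of the wider list, ordered by ratio, with dotted lines at 1.2-fold. Open circles mark values from the derived estimate in 1 or both libraries, and crosses give the log2 ratio of scaled fragments of those genes. Rps27a lies lowest, and Psmg4 and Ufd1l change side between the estimates.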

How the data were processed

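Polyadenylated RNA was fragmented, copied with dUTP in the second strand and sequenced on 2 lanes of an Illumina GAIIx per sample, per the labels' protocols and the series' own text. Bowtie 0.12.3, TopHat 1.4.1, bedtools and the build mm9 are named in the submitters' processing notes, without role or order. Annotation, filters, use of strand and treatment of reads with several matches are not stated in the labels, headers or notes used here.

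The authors deposited an FPKM-like value per gene, a log2 of (value + 1), and a signal per kilobase as an original, a derived and a final estimate, the final being the larger. The deposited value equals the final signal divided by 1 constant per library. The column headed gEUMA was taken as gene length. It was 962 for Psmb6, whose longest coding transcript in GENCODE has 798 bases, so it need not equal transcript length. Multiplied by this length, the deposited original signal came out whole (tolerance 0.01) for 100% of genes, and the product is called fragments. Whether these are reads or pairs is not given.

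Ratios of fragments were scaled by library totals, with exact conditional (Clopper-Pearson) 95% intervals. Quotients of a pair of genes have log-normal counting intervals. Sequenced fragments are not independent molecules, so intervals cover counting error only. Log2 ratios used the deposited values with a pseudocount of 1, which understates differences of low genes. Measured genes reached a value of 1 in 1 or both libraries. Python 3.11.15, numpy 2.4.6, pandas 2.3.3 and scipy 1.17.1 were used. The ratio of fragments and its interval were tested on simulated counts, and the other steps were not. Alternatives changed the pseudocount, scaling, estimate, minimum, centring by length and the members included.

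The members, gene lists and folds were chosen with earlier results of these data known. All members could be named. Other genes were named from the wider list when at least 1.2-fold apart or as 1 of the regulators Nfe2l1, Nfe2l2, Pomp, Adrm1, Usp14 and Psmf1. Ddi2 and Ubb were named after their values were seen. Some genes of the wider list enter its counts but are not reported here. Sequences came from RefSeq (GRCm38.p6) and GENCODE M21, and no coordinates were converted between builds.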

Additional observations from a re-analysis of the deposited data

How the results depend on the processing

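The results for the members and the wider list kept within 1.5 times (counts) or within 0.06 on the log2 scale, the typical half-width of a counting interval (medians and SD), under the other settings tried, with 3 exceptions. Centring within 4 classes of gene length raised the count of members at least 1.2-fold higher to 5, against 3, and a pseudocount of 5 left 1 gene of the wider list at least 1.2-fold higher, against 6, since that pseudocount shrinks ratios of low genes. By the ratio of fragments with no pseudocount, chosen after seeing the data, 5 members were at least 1.2-fold higher, with Psma2 (1.2) and Psmd10 added. With fragments per kilobase and a pseudocount of 1 there were 4, without Psma2, and with deposited values and a pseudocount of 0.1 also 4, with Psma2 and without Psmd10. The members' median ran from 0.06 to 0.12, and 1 member was at least 1.2-fold lower under each setting. Without the 11 members that share over 10% of their windows with other transcripts, an alternative chosen after seeing the data, the median was 0.07 over 27 members with 2 higher and 1 lower. Without the 10 members with overlapping exons, also chosen afterwards, it was 0.08 over 28, again with 2 and 1. The log2 ratio of Psmd2 moved to 0.13 from fragments, against 0.05. No paired analysis was possible because each genotype had 1 library, and for the same reason no library could be left out. Depth leaves Psma8 and Psmb11 without a ratio, and counting intervals spanned 1.2-fold higher in 6 members (Psma2, Psmc2, Psmd1, Psmd10, Psmd14 and Psme4) and 1.2-fold lower in Psmb3.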

Other observations

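The chromosome that carries the microRNA locus, chromosome 11, also carries 8 of the measured proteasome genes in GENCODE. Comparing ILN/ILN with wild type, their log2 ratios had a median of 0.07 and ran from -0.25 for Psmb3 to 0.20 for Psmc5. These 8 genes are thus spread over both sides of equality, as are the members as a whole.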
